A study of Mus musculus with 9 samples.

Results

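MHC class II genes encode the proteins that present peptides to CD4+ T cells, together with the proteins that load the peptides and the factor that switches the genes on. This account follows 8 of them, a list of class II chain, loading and control genes read as rows of the deposited count table. The list was set with earlier results of these data known. Counts of its genes beside the share over all genes are therefore a description only. All 8 were found among the 47480 gene names of the count table, and all 8 passed the filter on low counts that left 16426 genes for testing. RNA came from primary hematopoietic cells of C57BL/6 mice in 4 groups. All groups share this strain and were kept for 10 min in cycloheximide (100 ug/ml), a drug that stalls elongating ribosomes in place. LSK cells, which the labels call stem cells, are known as lineage-negative cells positive for Sca-1 and Kit. They were sampled as total RNA (2 libraries) and as polysomal RNA, taken from fraction 7 of a sucrose gradient (2 libraries). The other population carries the label MP, a short form that the labels do not expand beyond progenitor cells. It was sampled in the same way as total RNA (2 libraries) and polysomal RNA (3 libraries). The labels give no age, sex or number of animals, no sort gate, and no batch or date.

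In background, a class II molecule is a dimer of an alpha and a beta chain. H2-Aa and H2-Ab1 encode the chains of the I-A molecule, and H2-Eb1 the beta chain of I-E. Cd74 encodes the invariant chain, which fills the groove of new dimers and leads them to the endosome. There H2-DM, a dimer of the H2-DMa and H2-DMb1 products, exchanges the remnant of the invariant chain for peptides, and H2-O, of which H2-Ob encodes the beta chain, restrains H2-DM. Ciita encodes the class II transactivator, a co-activator that binds no DNA itself and is recruited by factors sitting on the X and Y boxes of class II promoters. B cells, dendritic cells and macrophages are the best known class II cells, and class II on blood stem and progenitor cells has also been described.

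The X and Y boxes of the promoters are shown first because they are the shared DNA element through which Ciita acts on these genes. RefSeq promoter windows of GRCm38.p6, from 250 bases before to 50 after each start, were matched by symbol for 5 of the 8 members, H2-Aa, H2-Eb1, H2-DMa, H2-DMb1 and H2-Ob. Windows were also matched for the class II chain genes outside the list, H2-Oa, H2-DMb2 and H2-Eb2. Each line below runs 5′ to 3′ on the strand of the gene, with the X box letters CNNGNAAC and the Y box letters ATTGG, the reverse of CCAAT, in capitals.
H2-Aa: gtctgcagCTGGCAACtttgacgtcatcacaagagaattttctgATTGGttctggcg
H2-Eb1: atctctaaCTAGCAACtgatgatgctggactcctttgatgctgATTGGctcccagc
H2-DMb1: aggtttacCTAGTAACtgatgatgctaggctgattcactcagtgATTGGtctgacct
H2-Ob: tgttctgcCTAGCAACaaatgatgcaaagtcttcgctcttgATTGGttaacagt
H2-Oa: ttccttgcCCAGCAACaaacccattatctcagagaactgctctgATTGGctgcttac
H2-Eb2: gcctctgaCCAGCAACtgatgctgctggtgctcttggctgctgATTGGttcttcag
They lie at chr17:34287859-34287915 (minus strand) for H2-Aa and, on the plus strand, at chr17:34305765-34305820 for H2-Eb1, chr17:34153086-34153142 for H2-DMb1, chr17:34238807-34238860 for H2-Ob, chr17:34092292-34092348 for H2-Oa and chr17:34325532-34325587 for H2-Eb2. The boxes were 25 bases apart in H2-Ob, 27 in H2-Eb1 and H2-Eb2, and 28 in H2-Aa, H2-DMb1 and H2-Oa.

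This order, an X box followed on the same strand by ATTGG within 15 to 40 bases, was present in 1.08% of all 32851 promoter windows of this length, counting both strands. The letters CNNGNAAC alone were present in 39.1% of windows and CCAAT in either direction in 37.4%. The letters first set for the X box, CCNNGNAAC, were 1 base longer. With ATTGG at the same distances they matched H2-DMb1, H2-Ob and H2-Oa, and 0.454% of all windows. The shorter letters were chosen after the promoters had been read, so their match in H2-Aa, H2-Eb1 and H2-Eb2 is a description only. Neither of the H2-DMa windows nor the window of H2-DMb2 held the pair in these letters. A match to letters says nothing of binding.

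**Figure D1:**
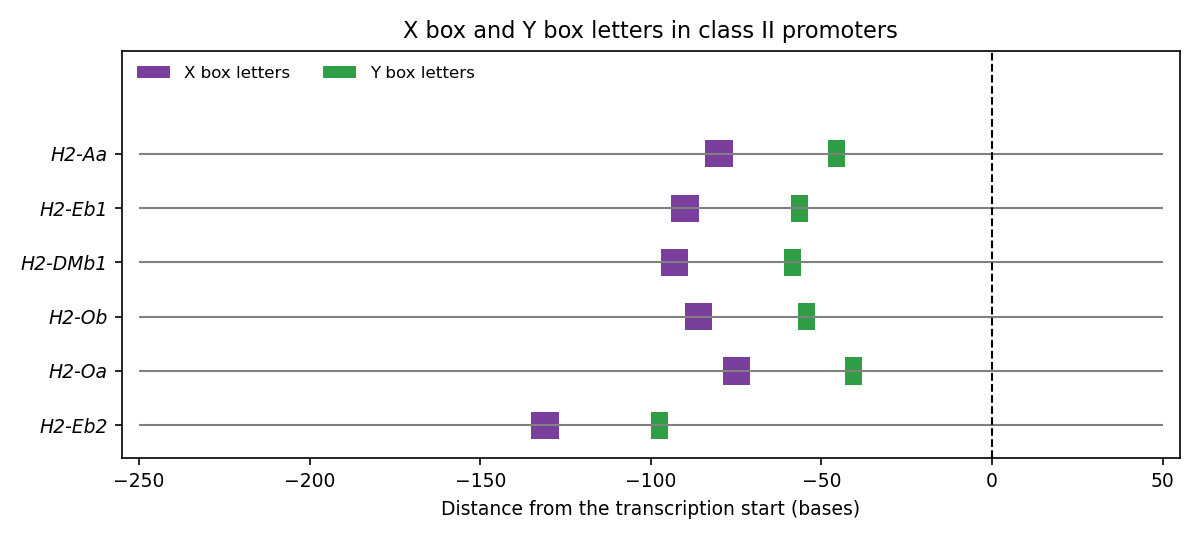
Position of the X box letters (CNNGNAAC, purple) and Y box letters (ATTGG, green) in 6 class II promoter windows, as distance in bases from the RefSeq transcription start (dashed line). In H2-Aa, H2-Eb1, H2-DMb1, H2-Ob and H2-Oa the X box begins 79 to 97 bases before the RefSeq start, and in H2-Eb2 135 bases before it.

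Of the 8 genes, 6 lie in the class II region of chromosome 17 (GRCm38, GENCODE M21), all as protein-coding genes. H2-Aa spans 34282744 to 34287823 on the minus strand. On the plus strand, H2-Ab1 spans 34257689 to 34269419, H2-Eb1 34305867 to 34316674, H2-DMa 34119541 to 34139101, H2-DMb1 34153072 to 34160230 and H2-Ob 34238903 to 34254414. In H2-DMb1 and H2-DMa these GENCODE spans begin upstream of the RefSeq starts used for the promoter windows. The boxes shown for H2-DMb1 and the H2-DMa windows therefore lie inside the spans. Ciita spans 10480059 to 10528418 of chromosome 16, plus strand, and Cd74 lies on chromosome 18. The exons of H2-DMa share 360 bases with Brd2 on the opposite strand and those of Ciita share 329 bases with Dexi. No source used here states whether the counting used strand, and without strand the reads of these stretches cannot be assigned to 1 gene. H2-DMb1 and its neighbour H2-DMb2 have identical runs of up to 221 bases in their longest coding transcripts, so their counts may be split between them.

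Total counts ran from 27342343 to 34807735 per library. The 8 genes together took 0.102% to 0.134% of the counts in the 4 LSK libraries and 0.0221% to 0.0344% in the 5 MP libraries. The lowest count behind any member was 35, for Ciita in MP total 2. Levels are given as CPM, counts scaled to a common library size, after TMM scaling. Ly6a, which encodes Sca-1, ranged from 50.2 to 110 CPM over the LSK libraries and from 0.159 to 1.26 CPM over the MP libraries. Changes are log2 fold changes of MP over LSK with their standard error (SE), from edgeR's quasi-likelihood test on all 9 libraries, with p-values adjusted over all 16426 genes and called under 0.05. Nothing in the labels ties a library to an animal or a sort, so the p-values speak of library-to-library spread alone, and this may be technical. An exact permutation test could not go below p = 0.33 with 2 against 2 libraries or p = 0.2 with 2 against 3.

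In polysomal RNA, 4 of the 8 genes were called lower in MP, namely H2-Aa, H2-Eb1, H2-DMa and H2-Ob, by 4.53-fold to 8.62-fold, and 0 were called higher. Over all genes tested, 2.83% were called lower in that comparison, 0.524% higher and 3.35% in either direction. In total RNA 0 of the 8 were called by edgeR's quasi-likelihood test, where 0.816% of all genes were called lower, 0.274% higher and 1.09% in either direction. An unadjusted p under 0.05 in that test was found for 5 of the 8, against 17.1% of all genes tested. DESeq2 called 3 of the 8 in total RNA (H2-Aa, H2-Eb1 and H2-Ob), as did limma on the authors' normalized table. Both called more genes in general, with 1451 of the 16426 genes called by DESeq2 and 850 by limma, against 179 by edgeR. The 8 log2 changes were all negative in both fractions, with a median of −1.80 in total and −2.20 in polysomal RNA, against medians of −0.00623 and −0.0257 over all genes tested. The LSK and MP libraries are bulk samples, so fewer cells carrying a message and less message per cell cannot be told apart.

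**Figure D2:**
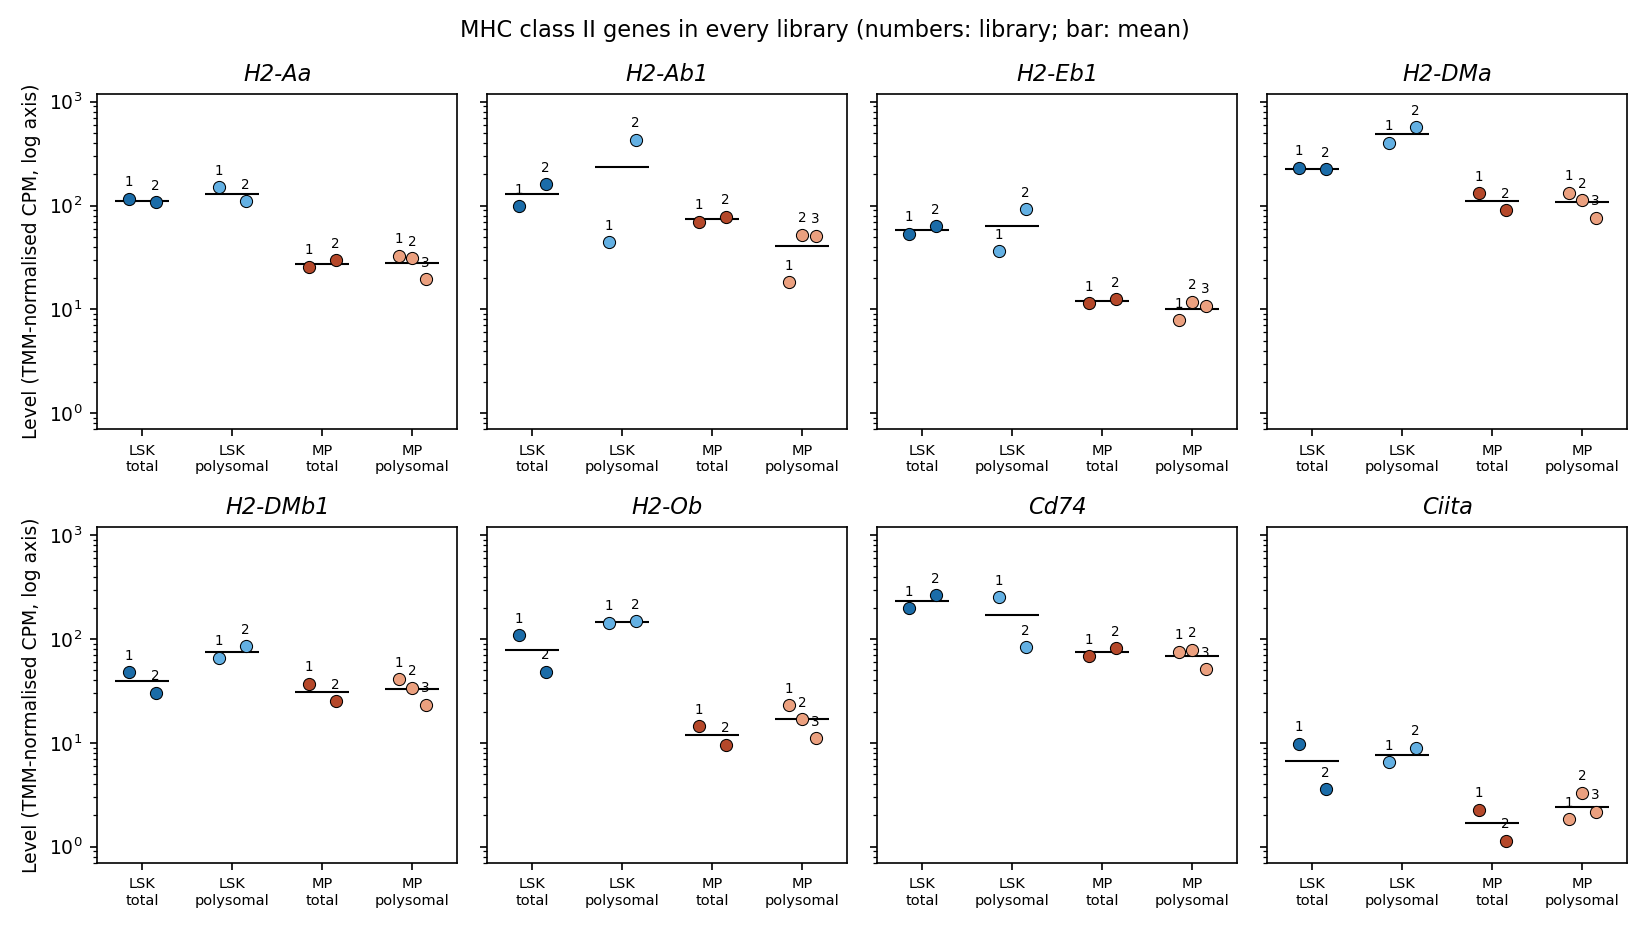
Level of each of the 8 genes (TMM-normalised CPM, log axis) in every library, by group. Points are libraries with their numbers and bars are means. H2-Aa, H2-Eb1, H2-DMa and H2-Ob are higher in all 4 LSK libraries than in any MP library, while H2-Ab1 and H2-DMb1 overlap.

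Among the classical chains, H2-Aa had close values within each group. It stood at 116 and 107 CPM in LSK total 1 and 2, 150 and 110 CPM in LSK polysomal 1 and 2, 25.7 and 29.6 CPM in MP total 1 and 2, and 33.0, 31.1 and 19.6 CPM in MP polysomal 1 to 3. The lowest LSK library was thus more than 3 times the highest MP library. MP differed from LSK by a log2 change of −2.01 in total RNA (SE 0.511, adjusted p = 0.0906) and −2.22 in polysomal RNA (SE 0.447, adjusted p = 0.0318).

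H2-Eb1 had the same order of populations. It stood at 53.7 and 63.5 CPM in LSK total RNA and 36.1 and 91.9 CPM in LSK polysomal RNA. In MP it stood at 11.4 and 12.5 CPM in total RNA and at 7.89, 11.8 and 10.8 CPM in polysomal RNA. All LSK libraries lay above all MP libraries, with LSK polysomal 2 the highest. Its log2 change was −2.29 in total RNA (SE 0.612, adjusted p = 0.097) and −2.65 in polysomal RNA (SE 0.536, adjusted p = 0.0319). The strain bears on this gene, since C57BL/6 mice carry a defective alpha chain gene for I-E and are known to put no I-E on the cell surface. That gene, H2-Ea-ps, annotated as a polymorphic pseudogene, had 0 to 2 counts in each library.

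H2-Ab1, the partner of H2-Aa in I-A, had the widest spread of the 8 within LSK polysomal RNA. It stood at 98.7 and 160 CPM in LSK total RNA, 44.5 and 428 CPM in LSK polysomal RNA, 69.5 and 77.8 CPM in MP total RNA, and 18.2, 52.2 and 50.9 CPM in MP polysomal RNA. The LSK libraries did not lie apart from the MP libraries, because LSK polysomal 1 was below 4 of the 5 MP values. For H2-Ab1 the log2 change was −0.81 in total RNA (SE 0.904, adjusted p = 0.715) and −2.55 in polysomal RNA (SE 0.823, adjusted p = 0.134), which DESeq2 called (adjusted p = 0.0332) and edgeR called with no filter on low counts (adjusted p = 0.00243). Leaving out LSK polysomal 2 brought the polysomal change to −0.13 (adjusted p = 0.97), and leaving out LSK polysomal 1 brought it to −3.27 (adjusted p = 0.0383).

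The CPM ratio of H2-Ab1 to H2-Aa, whose proteins pair with each other, therefore went from 0.297 in LSK polysomal 1 to 3.90 in LSK polysomal 2, and from 0.551 to 2.70 among the MP libraries. LSK polysomal 2 also stood apart in base composition. The deviation of each gene from its mean over libraries had a Spearman correlation of 0.488 with transcript GC content in that library and of −0.348 to 0.231 in the others, as a description across the 15846 genes with a GC value. The longest coding transcript of H2-Ab1 has 57.3% GC, that of H2-Aa 51.0%. After removal of the trend with GC, an alternative added after the data were seen, the polysomal change of H2-Ab1 was −1.71 (adjusted p = 0.112). Cd74, with 56.6% GC, was low in the same library, and the part of base composition in either value was otherwise not tested.

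Cd74, the invariant chain gene, stood at 198 and 264 CPM in LSK total RNA and 254 and 83.8 CPM in LSK polysomal RNA. It stood at 68.1 and 81.7 CPM in MP total RNA and at 75.6, 78.5 and 51.2 CPM in MP polysomal RNA. The groups did not overlap, but LSK polysomal 2, the highest library for H2-Ab1, was within 3 CPM of the highest MP library. For Cd74 the log2 change was −1.62 in total RNA (SE 0.595, adjusted p = 0.201) and −1.30 in polysomal RNA (SE 0.523, adjusted p = 0.227). Without LSK polysomal 1 the polysomal value was −0.19, and without LSK polysomal 2 it was −1.88.

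H2-DMa encodes the alpha chain of the loading factor H2-DM. It stood at 230 and 223 CPM in LSK total RNA, 402 and 567 CPM in LSK polysomal RNA, 132 and 89.6 CPM in MP total RNA, and 133, 112 and 76.7 CPM in MP polysomal RNA. All LSK libraries lay above all MP libraries, and both LSK polysomal libraries above both LSK total libraries. The log2 change of MP over LSK was −1.03 in total RNA (SE 0.479, adjusted p = 0.312) and −2.18 in polysomal RNA (SE 0.431, adjusted p = 0.03). With the trend with GC removed the polysomal change was −1.79 and no longer passed (adjusted p = 0.0511).

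H2-DMb1, the other chain of H2-DM, differed less. It stood at 47.8 and 30.3 CPM in LSK total RNA, 66.3 and 85.1 CPM in LSK polysomal RNA, 36.9 and 25.2 CPM in MP total RNA, and 41.1, 33.9 and 23.2 CPM in MP polysomal RNA. LSK and MP overlapped in total RNA and did not in polysomal RNA. H2-DMb1 had a log2 change of −0.33 in total RNA (SE 0.547, 95% interval −1.56 to 0.895, adjusted p = 0.816), which turned to 0.05 without LSK total 1, and −1.21 in polysomal RNA (SE 0.492, adjusted p = 0.233). The total RNA interval spans 0 and also a fall of more than 2-fold, so it does not show that the level was alike in both populations.

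H2-Ob, the beta chain gene of the H2-DM inhibitor, was lower in every MP library than in any LSK library. It stood at 109 and 48.5 CPM in LSK total RNA, 144 and 149 CPM in LSK polysomal RNA, 14.4 and 9.61 CPM in MP total RNA, and 23.0, 16.9 and 11.1 CPM in MP polysomal RNA. The lowest LSK library, LSK total 2, was still above the highest MP library. H2-Ob had a log2 change of −2.71 in total RNA (SE 0.628, adjusted p = 0.0705) and −3.11 in polysomal RNA (SE 0.548, adjusted p = 0.0206). The total RNA value was −2.0 without LSK total 1. Its partner H2-Oa, not among the 8, ranged from 19.0 to 54.8 CPM in LSK and from 3.44 to 11.2 CPM in MP, with log2 changes of −1.54 (SE 0.675, adjusted p = 0.286) and −2.58 (SE 0.605, adjusted p = 0.0529).

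Ciita was the least abundant of the 8 and was present in every library. It stood at 9.77 and 3.57 CPM in LSK total RNA, from counts of 335 and 143, and at 6.48 and 8.97 CPM in LSK polysomal RNA. In MP it stood at 2.26 and 1.14 CPM in total RNA, from counts of 68 and 35, and at 1.84, 3.30 and 2.17 CPM in polysomal RNA. The lowest LSK value, in LSK total 2, was just above the highest MP value. Between populations the log2 change was −1.97 in total RNA (SE 0.719, adjusted p = 0.199) and −1.66 in polysomal RNA (SE 0.625, adjusted p = 0.196). The total RNA value went from −2.53 to −1.05 with 1 library left out, and was −1.05 without LSK total 1.

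**Figure D3:**
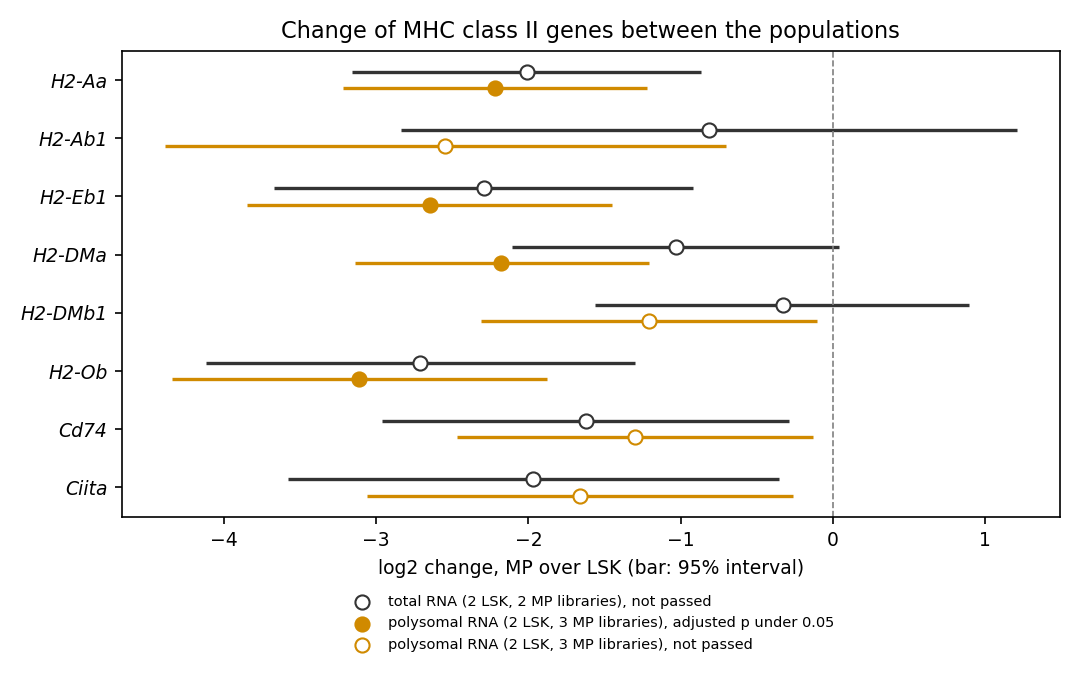
Log2 change of MP over LSK for each gene in total RNA (dark) and polysomal RNA (orange), with 95% intervals. Filled points passed at an adjusted p under 0.05, which were H2-Aa, H2-Eb1, H2-DMa and H2-Ob in polysomal RNA, and the intervals of H2-Ab1, H2-DMa and H2-DMb1 in total RNA include 0.

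For 6 of the 8 genes all 4 LSK libraries lay above all 5 MP libraries, the exceptions being H2-Ab1 and H2-DMb1. Over all genes tested, 8.51% did so. Within total RNA 7 of 8 did so, against 28.5% of all genes, and within polysomal RNA 7 of 8, against 17.4%. Leaving out libraries ended the polysomal calls but not their direction. Over all genes tested, the 551 polysomal calls fell to 0, 0 and 25 without MP polysomal 1, 2 and 3 in turn. In these fits the loss was thus not particular to the class II genes. Without LSK polysomal 2, MP total 1 or MP total 2, many other genes stayed called, so there the loss was not shared by all genes. The 4 called genes became 0 without LSK polysomal 2, MP polysomal 1, MP polysomal 2 or MP polysomal 3, and 1 without MP total 1 or MP total 2, with log2 changes of these genes between −1.82 and −3.40 over all libraries left out in turn. Without LSK polysomal 1 there were again 4, with H2-Ab1 in place of H2-Aa. Only H2-Ob passed when the polysomal groups were fitted alone, or when both LSK libraries numbered 2 were left out.

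Per kilobase of merged exons, the order of mean levels in LSK total RNA was Cd74 (137 ± 27.5 CPM per kilobase, SD, n = 2), H2-DMa (65.7 ± 1.30), H2-Ab1 (50.4 ± 16.9), H2-Eb1 (30.2 ± 3.55), H2-Aa (29.4 ± 1.71), H2-DMb1 (23.2 ± 7.38), H2-Ob (14.6 ± 7.90) and Ciita (0.699 ± 0.460). The ranges of the 2 libraries overlapped between H2-Eb1 and H2-Aa, H2-Aa and H2-DMb1, and H2-DMb1 and H2-Ob, so these neighbours did not differ beyond their spread. Cd74 and Ciita were also the ends of the order in MP total RNA, at 44.6 ± 5.71 and 0.178 ± 0.0837 CPM per kilobase. There H2-DMb1 (18.5 ± 4.95) stood above H2-Aa (7.29 ± 0.725) and H2-Eb1 (6.14 ± 0.427). The annotated exons of H2-Aa include retained introns, and the order changed with the length used. On the longest protein-coding transcripts, a length added after the data were seen, H2-Aa was 99.1 ± 5.76 CPM per kilobase in LSK total RNA, next to H2-Ab1 at 107 ± 35.7. In MP total RNA H2-Aa was then 24.5 ± 2.44, beside H2-DMb1 at 22.1 ± 5.93, and H2-Ab1 (60.8 ± 4.84) stood above H2-DMa (55.1 ± 14.8) and Cd74 (53.1 ± 6.80).

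The comparison of polysomal with total RNA asked whether class II messages were over- or under-represented among messages carrying several ribosomes. By edgeR's quasi-likelihood test 0 of the 8 genes were called in LSK and 0 in MP, as for all genes, of which 0% were called in either. An unadjusted p under 0.05 was found for 1 of 8 in LSK and 0 in MP, against 12.1% and 7.57% of all genes, so 1 of 8 was near the general share. DESeq2 and limma on the authors' table called 0 of the 8 in both. Over all genes DESeq2 called 433 in LSK and 18 in MP, and limma called 486 in LSK. Of the 8, the gene with the unadjusted p under 0.05 was H2-DMa in LSK. It averaged 226 ± 4.50 CPM in total and 485 ± 116 CPM in polysomal RNA (SD, n = 2 each), a log2 difference of 1.10 (SE 0.479, adjusted p = 0.402). Its counterpart in MP was −0.05 (SE 0.432, adjusted p = 0.998), from 111 ± 29.6 (n = 2) and 107 ± 28.3 CPM (n = 3).

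In LSK the 8 log2 differences of polysomal over total RNA ran from −0.45 for Cd74 to 1.10 for H2-DMa, with a median of 0.54 beside 0.02 over all genes. In MP they ran from −0.87 for H2-Ab1 to 0.52 for Ciita, with a median of −0.02 beside −0.08 over all genes. The widest 95% interval was that of H2-Ab1, −1.16 to 2.90 in LSK and −2.68 to 0.949 in MP, and the narrowest was that of H2-DMa in MP, −1.02 to 0.921. The test of whether the polysomal to total ratio differed between MP and LSK called 0 of 8 (0 with an unadjusted p under 0.05, 0 by DESeq2), and 0% of all genes by edgeR. Over all genes 5.29% had an unadjusted p under 0.05 in edgeR's test, and DESeq2 called 1. The values of the 8 went from −1.74 for H2-Ab1 (SE 1.22, adjusted p = 0.877) to 0.32 for Cd74 (SE 0.787, adjusted p = 0.939).

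Markers of mature class II cells were looked at beside these results. A list of 18 B cell genes, immunoglobulin genes included, summed to 614 to 4290 CPM in the 4 LSK libraries and to 159 to 365 CPM in the 5 MP libraries, and none of the 18 was at 0 throughout a group. Of these genes 5 were called lower in MP polysomal RNA (Igkc, Pou2af1, Blnk, Cd79a and Fcer2a) and 1 in total RNA (Igkc). Negative changes were found for 17 of the 18 in total RNA and 16 in polysomal RNA. Some of the 18 overlapped between the populations. Bank1 ranged from 0.831 to 1.97 CPM over LSK and from 0.487 to 4.27 CPM over MP libraries. Cd22 ranged from 0.374 to 1.06 and from 0.255 to 1.29 CPM, and Cd79b from 47.3 to 80.3 and from 27.5 to 49.3 CPM. Igkc, the kappa light chain gene, ranged from 111 to 2250 CPM over LSK and from 1.27 to 2.76 CPM over MP libraries. Cd79a, a chain gene of the B cell receptor, ranged from 3.35 to 9.18 and from 0.319 to 0.999 CPM, Pou2af1, a B cell co-activator gene, from 3.18 to 7.14 and from 0.130 to 0.599 CPM, and Blnk, an adaptor gene, from 4.17 to 9.34 and from 0.799 to 1.92 CPM. Fcer2a reached 1.33 CPM in LSK and 0.127 CPM in MP. Lower values in both populations were found for other B cell genes. Ms4a1, which encodes CD20, ranged from 0 to 1.10 CPM over LSK libraries and 0.0330 to 0.433 CPM over MP libraries. For Pax5, the B cell identity factor gene, these ranges were 0.0292 to 0.540 and 0 to 0.0974 CPM.

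The sum over all 18 was carried by immunoglobulin genes. In LSK total 1 and 2 it was 614 and 4290 CPM, of which Igkc gave 136 and 2250 CPM and Ighm 407 and 1960 CPM. Without Igkc, Ighm, Ighd and Cd79b the remaining 14 B cell genes summed to 21.5 to 36.2 CPM over LSK libraries and to 4.32 to 10.0 CPM over MP libraries, higher in each LSK library than in any MP library. Over LSK total 1, LSK total 2, LSK polysomal 1 and LSK polysomal 2 these 14 genes summed to 21.5, 25.2, 26.0 and 36.2 CPM. The 8 class II genes summed to 863, 900, 1100 and 1520 CPM there, so both sums had the same order. That order was not particular to B cell genes, since 12 dendritic cell genes summed to 391, 485, 571 and 1810 CPM. It also placed total below polysomal RNA. The sums of macrophage and monocyte genes and of neutrophil genes had other orders. The LSK libraries numbered 2 had the higher Igkc and Ighm values of each fraction, but not the higher Ighd value in polysomal RNA. Without both of them, which left 1 LSK library in each fraction, the polysomal changes were −2.42 for H2-Aa, −1.83 for H2-Eb1, −1.91 for H2-DMa, −3.08 for H2-Ob and −0.14 for H2-Ab1. The part of B cell RNA in the class II difference was not tested.

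**Figure D4:**
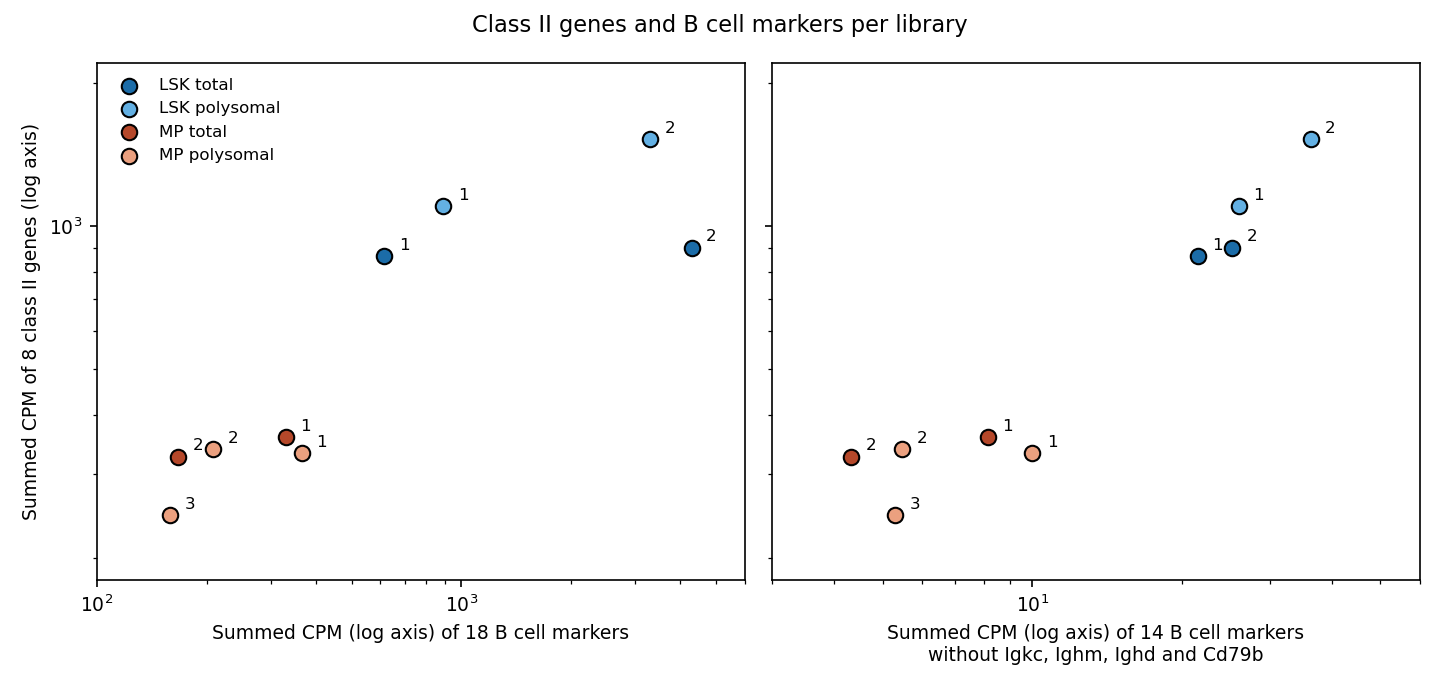
Summed CPM of the 8 class II genes in each library against summed CPM of 18 B cell markers (left) and of 14 without Igkc, Ighm, Ighd and Cd79b (right), all axes log, coloured by group and numbered by library. LSK total 1 and 2 differ in the sum over 18 (614 and 4290 CPM) and little in the sum over 14 (21.5 and 25.2 CPM), which rises with the class II sum over the 4 LSK libraries. The sum of 12 dendritic cell genes, not plotted, rises in the same order.

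Of 12 dendritic cell genes, 1 of the 11 tested was called lower in MP polysomal RNA, Flt3, a cytokine receptor gene that lymphoid-primed progenitors also express. The list summed to 391 to 1810 CPM over LSK and 207 to 400 CPM over MP libraries. Of the 11 tested, 7 had negative changes in total RNA and 8 in polysomal RNA. Values were higher in LSK for Ccr9, a chemokine receptor gene (2.03 to 7.74 CPM in LSK, 0 to 0.584 in MP), and by the median for Tcf4 (147 and 53.9 CPM) and Clec10a (12.7 and 4.63 CPM). The defining genes Xcr1, Clec9a and Cd209a reached at most 2.09 CPM in any library, and Siglech had 0 to 10 counts. Zbtb46, a transcription factor gene of classical dendritic cells, had lower values in LSK (1.31 to 2.89 CPM) than in MP (9.87 to 50.2 CPM). Macrophage and monocyte genes (12) summed to 236 to 386 CPM in LSK against 1250 to 2380 CPM in MP, a sum carried by Ly6c2 (112 to 176 CPM in LSK, 788 to 1760 CPM in MP). Of these 12 genes, 5 had negative changes in total RNA and 6 in polysomal RNA. Vcam1 and Ly6c2 were called higher in MP total RNA, and in MP polysomal RNA Ly6c2 was called higher and the complement genes C1qa and C1qb lower. C1qb ranged from 1.15 to 27 CPM in LSK and from 0.191 to 1.23 CPM in MP. The part of these cell types in the class II values was not tested. Of other lists, 2 of 6 plasma cell genes and 1 of 5 tested T and NK cell genes were called lower in MP polysomal RNA. So were 9 of 10 stem cell genes, while 5 of 8 erythroid genes were called higher. Over all genes tested, 2.83% were called lower and 0.524% higher. The stem cell list holds Ly6a, whose product Sca-1 is part of what defines LSK cells. Neutrophil markers were uneven within MP, at 13700 and 16700 CPM in the libraries numbered 1 and 500 to 983 CPM in the others. The 8 class II genes summed to 360 and 333 CPM in those 2 libraries and to 246 to 339 CPM in the other MP libraries.

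The rest of the pathway was read from lists of its genes. Of the class II chain genes outside the 8, 4 were in the table and 3 were tested, with 0 called in either direction in any comparison. H2-DMb2 ranged from 5.75 to 10.2 CPM in LSK and from 2.10 to 5.86 CPM in MP. H2-Eb2 had 1 to 19 counts in LSK and 0 to 3 in MP libraries. Of 13 genes of antigen processing and co-stimulation, 12 were tested and 0 were called in any comparison.

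The 3 smallest p-values in that list belonged to Cd86, Lgmn and Cd83. Cd86, a co-stimulatory ligand gene, ranged from 2.16 to 7.29 CPM in LSK and from 0.167 to 1.13 CPM in MP (log2 change −4.45, adjusted p = 0.0676 in total RNA, and −2.97, adjusted p = 0.0818 in polysomal RNA). Lgmn, which encodes an endosomal protease, ranged from 3.99 to 17.6 and from 0.487 to 2.56 CPM (−1.74 and −2.96, adjusted p = 0.358 and 0.0775). Cd83, whose product steadies class II and CD86 on the surface, ranged from 0.432 to 2.49 and from 0.0974 to 0.633 CPM (−1.91 and −3.68, adjusted p = 0.428 and 0.0921). All 3 had values lower in MP, while the list as a whole had 5 of 12 negative changes in total RNA and 8 of 12 in polysomal RNA.

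Of 21 regulators of class II genes, 20 were tested and 0 were called in any comparison. Rfx5, Rfxap and Rfxank encode the complex that binds the X box, and their levels overlapped between the populations. They ranged from 10.7 to 41.8, 0.992 to 60.9 and 18 to 34.3 CPM in LSK and from 8.61 to 36.3, 3.04 to 56.6 and 19.2 to 26.8 CPM in MP. The smallest p-values were those of Irf1, Ifngr1 and Irf4. Irf1, an interferon-induced activator gene, ranged from 90.8 to 440 CPM in LSK and from 35.6 to 78.4 CPM in MP (log2 change −1.14 in total and −2.27 in polysomal RNA, adjusted p = 0.462 and 0.0874). Ifngr1, which encodes the ligand-binding chain of the interferon gamma receptor, had the opposite order, with 194 to 297 CPM over LSK and 481 to 910 CPM over MP libraries (1.6 and 1.4, adjusted p = 0.114 and 0.112). Irf4, a lymphoid factor gene, reached 2.19 CPM in LSK against 0.330 CPM in MP (−2.88 and −2.52, adjusted p = 0.173 and 0.148).

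Genes of other function that share the class II region were read in the same way. Of Brd2, Psmb9, Tap1, Psmb8 and Tap2, 0 of 5 were called in any comparison. Their median log2 change was 0.26 in total RNA and −1.39 in polysomal RNA. Tap1, a peptide transporter gene of the class I pathway, ranged from 112 to 783 CPM over LSK and from 75.7 to 244 CPM over MP libraries, and Psmb8, an immunoproteasome gene, from 243 to 1190 and from 174 to 410 CPM. Both were highest in LSK polysomal 2, the library in which H2-Ab1 was highest. Psmb9, the other immunoproteasome gene of the region, had log2 changes of −0.40 and −1.39 (adjusted p = 0.763 and 0.151).

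Across the 9 libraries, the log2 CPM of each member was set against the mean of the other 7, as a description over libraries that share 2 populations. Pearson's r was 0.961 for H2-Ob, 0.949 for H2-Aa, 0.942 for H2-DMa, 0.928 for H2-Eb1, 0.877 for Ciita, 0.751 for H2-DMb1, 0.630 for Cd74 and 0.541 for H2-Ab1. The lowest pairwise r was 0.204, between H2-Ab1 and Cd74, and the highest was 0.952, between H2-DMa and H2-Ob. The I-A chains H2-Aa and H2-Ab1 had an r of 0.490.

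Among 8758 other genes whose mean CPM reached 10, those most like the mean pattern of the 8 were Chrnb1 and Paqr5 (Pearson's r = 0.991 each over 9 libraries), Eya2, Sorbs3 and Ggt5 (0.990 each), Tmem98 and Slc26a11 (0.988 each) and Gimap6 (0.987). Gimap6, a lymphoid GTPase gene, ranged from 159 to 401 CPM in LSK and from 13.1 to 25.0 CPM in MP. Eya2, a transcriptional co-activator gene, ranged from 50.8 to 144 CPM and from 3.6 to 4.9 CPM. All 8 were separate between the populations in every library, with the lowest LSK value above the highest MP value, as were 8.51% of all genes tested. They were picked for likeness to a pattern that was higher in LSK, so their separation follows from the choice and is no result. No class II pathway gene of the lists was among these 8 genes.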

How the data were processed

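RNA sequencing libraries (9) of 4 groups were analysed. Per the submitters' processing notes the authors used bcl2fastq, STAR, featureCounts and DESeq2 with the builds mm10 and GRCm38. Tool versions, the gene annotation and strandedness are not given in sources used here. The authors deposited raw counts per gene symbol, and a second deposited table on a log2-like scale that was used only as an alternative. Per the labels' protocols, libraries were made by SMARTer amplification.

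Counts were tested in R 4.3.3 with edgeR 4.0.16 after filterByExpr (minimum count 10, minimum total 15) and TMM scaling. The quasi-likelihood fit had 1 mean per group over all 9 libraries, with 5 residual degrees of freedom, 4.58 prior ones and a median biological coefficient of variation of 0.558. The 5 comparisons were two-sided, with Benjamini-Hochberg adjustment. Total counts of 27342343 to 34807735 give low counting error, and the spread between libraries set the precision. DESeq2 1.42.0 and limma 3.58.1 were alternatives. The procedure was also run on counts simulated with known fold changes, and its recovery of them is not reported here.

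The members and lists were chosen with earlier results of these data known. All 8 members were named in each comparison. Of each pathway list, every called gene or the 3 with the smallest p between populations were named, with further members given as ranges to fill out roles (H2-DMb2, H2-Eb2, Rfx5, Rfxap, Rfxank). The 8 genes most like the members were taken by Pearson's r with the mean standardised log2 CPM of the members, leaving out predicted models and clones. Gene symbols that spreadsheets turn into dates (27 rows), such as those of the March family that acts on class II, were not used.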

Additional observations from a re-analysis of the deposited data

How the results depend on the processing

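Between populations, all 8 members kept a negative log2 change in both fractions under every alternative run, except H2-DMb1 in total RNA without LSK total 1. In total RNA the count of 0 members became 1 with library totals, 1 with no filter, 1 with the replicate block, 3 with DESeq2 and 3 with the authors' table. In polysomal RNA the count of 4 became 1 with the compared groups alone, 1 with the replicate block, 1 without both LSK libraries numbered 2 and 0 without both MP libraries numbered 1. It was 5 with DESeq2 and 5 with no filter, H2-Ab1 being added in both, and 3 with GC removed. The range was 0 to 4 when 1 library was left out. The cause was not tested.

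Over the whole table, calls in total RNA (179) were 328 with library totals, 1206 with no filter, 1451 with DESeq2, 0 with the compared groups, 570 with the replicate block, 850 with the authors' table, 0 without both MP libraries numbered 1, 351 with GC removed, and 0 to 446 with 1 library left out. The higher and lower calls were 45 and 134, or 43 and 285 with library totals, which moved the median log2 change of all genes by −0.35 in total RNA, −0.11 in polysomal RNA, −0.38 and −0.14 for polysomal over total RNA in LSK and MP, and 0.24 for the difference of ratios. In polysomal RNA (551) they were 1558 with no filter, 1624 with DESeq2, 304 with the compared groups, 197 without both LSK libraries numbered 2, 0 without both MP libraries numbered 1, and 0 to 516 with 1 library left out. For polysomal over total RNA, the 0 calls became 547 (no filter), 433 (DESeq2), 486 (authors' table) and 1 (GC removed) in LSK, and 22 (no filter), 18 (DESeq2) and 1 (block within population) in MP. For the difference of ratios they became 4 (no filter) and 1 (DESeq2). Leaving out 1 library gave 0 in these 3 comparisons.

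Differences of polysomal and total RNA that did not pass turned sign in places. In LSK, H2-Eb1 was −0.13 (GC removed), −0.0812 (authors' table), −0.57 (without both LSK libraries numbered 2), −0.32 (library totals) and −0.0195 (replicate block within population). Ciita was −0.12 (GC removed), −0.59 (without both LSK libraries numbered 2) and −0.15 (library totals), H2-Aa −0.15 (library totals), and, without both LSK libraries numbered 2, Cd74 0.36 and H2-Ab1 −1.14. In MP, H2-Aa was −0.0221 (authors' table), −0.26 (without both MP libraries numbered 1), −0.00314 (compared groups) and −0.13 (library totals). H2-DMa was 0.35 (GC removed), 0.0421 (without both MP libraries numbered 1), 0.15 (replicate block) and 0.17 (block within population). Cd74 was 0.40 (GC removed), 0.0336 (replicate block) and 0.0462 (block within population), and H2-DMb1 −0.0544 (library totals). For the difference of ratios, H2-Aa was 0.11 (GC removed), 0.0125 (library totals) and 0.0146 (replicate block within population), H2-Eb1 0.0925 (GC removed), and, without both LSK libraries numbered 2, Cd74 was −0.48, H2-Ab1 0.29, H2-Eb1 0.35 and H2-Ob 0.10.

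With 1 library left out, H2-DMb1 between populations in total RNA went from −0.63 to 0.0531. In LSK, polysomal over total, ranges were −0.15 to 0.44 for H2-Aa, −1.52 to 1.62 for H2-Ab1, −0.68 to 0.53 for H2-Eb1, −1.57 to 0.15 for Cd74 and −0.33 to 1.14 for Ciita. In MP they were −0.12 to 0.21 for H2-Aa, −0.28 to 0.26 for H2-DMa, −0.16 to 0.39 for H2-DMb1 and −0.25 to 0.0401 for Cd74. For the difference of ratios they were −0.42 to 0.19 for H2-Aa, −2.43 to 0.67 for H2-Ab1, −0.72 to 0.46 for H2-Eb1, −1.11 to 0.0735 for H2-Ob, −0.27 to 1.47 for Cd74 and −0.61 to 0.88 for Ciita.

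The library numbers are not stated to pair samples. Same-numbered libraries of different groups had deviations from group means correlated at −0.324 to 0.589, above 0.1 in 9 of 12 pairs. These pairs are not independent. Between groups of 2 libraries both same-numbered pairs have the same value by construction (0.443, 0.236 and 0.554). LSK polysomal 2 and LSK total 2 correlated best with MP polysomal 3, at 0.540 and 0.560. The replicate block is therefore given only here.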

Other observations

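The ratio of H2-DMb1 to H2-DMa, the chains of H2-DM, was noticed after the values were seen. In CPM it was 0.136 to 0.208 over the 4 LSK libraries and 0.281 to 0.310 over the 5 MP libraries, with no overlap. The ratio of Cd74 to H2-Aa was 0.764 to 2.46 in LSK and 2.29 to 2.76 in MP, and that of H2-Ob to H2-Oa 2.26 to 5.72 and 1.65 to 3.22, both with overlap. None of these ratios was tested.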
